A study of Homo sapiens with 15 samples.

Results

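Gene expression was compared between malignant T4 cells and nonmalignant S1 cells of the HMT3522 human breast epithelial series, in 3 T4 samples and 3 S1 samples out of 15 in the whole series. The samples were chosen by their titles alone, and no measured value entered the choice. T4 and S1 are established cell lines of 1 origin, and both grew in 3D lrECM, a gel of extracellular matrix rich in laminin. T4 is labelled malignant and S1 normal. No treatment is named for these 6 samples. The design text of the series speaks of vehicle, but no label ties it to a sample. The other 9 samples are T4 cells with a reverting agent each. They entered the fit to estimate the difference between array types, and they also add to the spread behind each p-value. Each agent was measured on only 1 array type, so differences between agents cannot be fully separated from that estimated difference. Total RNA was measured on Affymetrix arrays with several probe sets for many genes, and the deposited values are log2 expression.

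All 3 T4 samples and S1 samples 1 and 2 lie in the first of 2 value tables, and S1 sample 3 lies in the second. Sample medians were 7.36 to 7.37 in T4 and 7.33 to 7.40 in S1. Samples 1 and 2 of each line were nearly identical, with 6 genes at least 2-fold apart in T4 and 16 in S1, whereas sample 3 of each line stood apart from them, by 356 and 426 genes in T4 and by 553 and 648 in S1. The deviations of T4 sample 3 and S1 sample 3 from their group means correlated at 0.39 across genes, although the samples lie in different tables. The labels do not tell whether the samples of a line are separate cultures. The spread behind each p-value is pooled over the T4, S1 and reverted groups. It also holds differences among the reverting agents, and within a line it may be technical. The median over the 10 epithelial markers on the arrays was 10.20 to 11.09 in the T4 samples, against 10.27 to 10.66 in S1. KRT5 and KRT14, keratins of basal breast epithelium, averaged 13.25 ± 0.20 and 13.75 ± 0.19 in T4 and 13.63 ± 0.07 and 13.93 ± 0.14 in S1 (SD, n = 3 each). KRT19, a luminal keratin, averaged 6.75 ± 0.03 in T4 and 6.67 ± 0.07 in S1, below the lower quartile of every sample. Other luminal keratins were brighter. KRT8 averaged 9.30 ± 0.34 in T4 and 8.80 ± 0.33 in S1, and KRT18 11.57 ± 0.22 and 10.71 ± 0.23. KRT18 was higher in T4 by 0.98 ± 0.21 (log2 difference and standard error, limma adjusted p = 0.00331), and KRT8 did not pass (0.116). The 14 leukocyte and endothelial markers had medians of 6.88 to 6.92 in T4 and 6.90 to 7.08 in S1, and the 6 adipocyte markers 6.75 to 6.83 in T4 and 6.81 to 6.84 in S1, close to the lower quartiles of 6.89 to 6.91. Fibroblast markers had medians of 7.01 to 7.05 in T4 and 6.95 to 7.09 in S1.

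S1 cells in such a matrix are known to form small growth-arrested spheres with polarised cells around a central space, and T4 cells are known to form disorganised, growing clusters. Epithelial shape rests on the actin and microtubule cytoskeletons, on adhesion to the matrix and on directed secretion. Mitochondria and peroxisomes oxidise fat, lysosomes degrade proteins and lipids, and growth factors and cytokines carry signals between cells. The genes of these systems are described group by group.

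Of 9111 genes tested, 2452 (26.9%) passed the test, which was limma with Benjamini-Hochberg adjustment over all genes and a threshold of 0.05. T4 was higher than S1 in 1333 genes (14.6%) and lower in 1119 (12.3%). Most of these differences were modest: 943 were under 1.5-fold, 864 were 1.5-fold to under 2-fold, 529 were 2-fold to under 4-fold, 87 were 4-fold to under 8-fold and 29 were 8-fold or more. At least 2-fold differences numbered 373 higher (4.09%) and 272 lower (2.99%), and among the 29 largest 17 were higher and 12 lower. The median log2 difference of all genes tested was 0.01. The 3 T4 values lay wholly above the 3 S1 values in 1793 genes (19.7%) and wholly below them in 1590 (17.5%). Non-overlap and the test did not pick the same genes, since 2095 passing genes did not overlap, 357 passing genes overlapped and 1288 genes without overlap did not pass. A gap of at least 1 log2 unit between the lines was found for 120 genes with T4 above (1.32%) and 79 with T4 below (0.867%). Within the first table alone, with 3 T4 and 2 S1 samples, 981 genes were higher (10.8%) and 925 lower (10.2%). All 2452 genes had the same sign there, and 1582 of them passed there too. When the near-identical samples 1 and 2 of each line were averaged into 1 sample, a choice made after seeing the data, 801 genes were higher and 639 lower, and 1439 of these 1440 were among the 2452. With the sample number as a block and no table term, 1040 were higher and 744 lower.

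Cytokine genes were among the 12 that rose most. IL1A, the interleukin 1 alpha gene, stood at 11.63, 10.83 and 12.04 in T4 samples 1 to 3, against 8.07, 8.26 and 8.07 in S1 samples 1 to 3. CXCL8, the gene of the neutrophil chemokine interleukin 8, stood at 10.34, 10.08 and 10.81 in T4 samples 1 to 3, against 7.06, 7.16 and 7.20 in S1 samples 1 to 3. Neither gene's lines overlapped, and each gap was over 2 log2 units. The differences were 3.36 ± 0.30 and 3.33 ± 0.50 (log2 difference and standard error, T4 minus S1), 10.2-fold and 10.1-fold higher in T4, with adjusted p of 4.99e-06 and 0.000334 in limma. Averaged over all probe sets of each gene the differences were 1.70 and 1.08, and both still passed. SH3YL1, an SH3-domain gene, was lower by 8.36-fold (-3.06 ± 0.31, limma adjusted p = 1.54e-05). GPNMB, a transmembrane glycoprotein gene, stood at 9.36, 9.78 and 7.10 in T4 samples 1 to 3, against 12.68, 12.91 and 8.96 in S1 samples 1 to 3. Its lines overlapped, the difference was -3.05 ± 1.05 (limma adjusted p = 0.0451), and it did not pass without S1 sample 1, S1 sample 2, T4 sample 1 or T4 sample 3, with adjusted p of 0.0612 to 0.193.

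**Figure D1:**
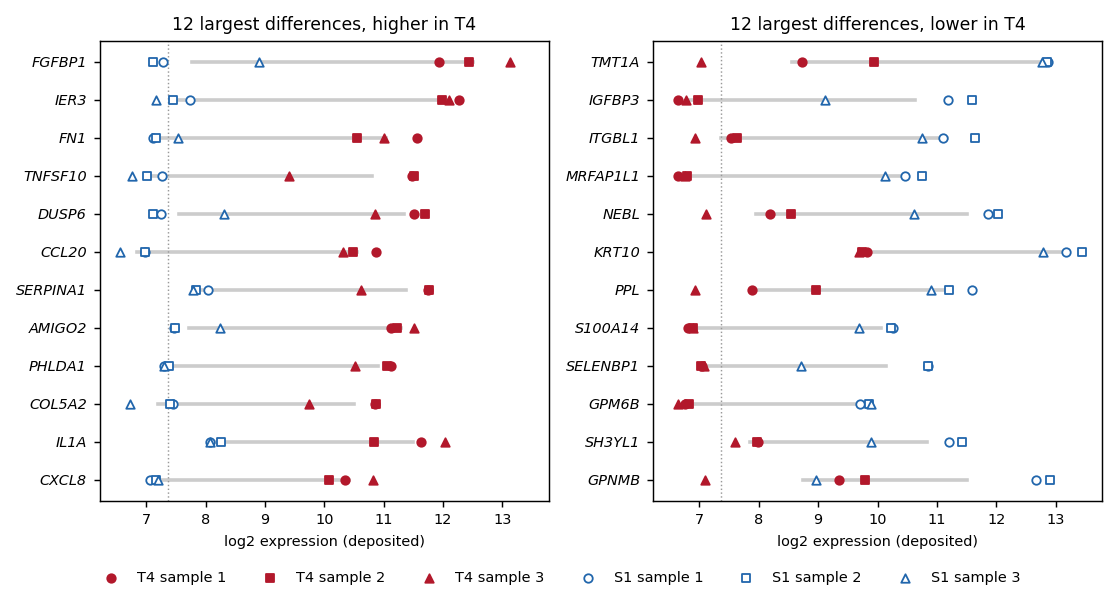
Deposited log2 expression (horizontal axis) of the 12 genes with the largest differences in each direction, with 1 marker per sample, T4 in filled red and S1 in open blue. Grey bars join the group means, and the dotted line is the middle of the 6 sample medians. All the IER3 values in T4 lie between 11.98 and 12.26, above the S1 values of 7.17 to 7.74, whereas the lines overlap for GPNMB.

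The promoters of IL1A and CXCL8 are shown because both genes are known targets of AP-1, the dimer of FOS and JUN proteins. FOSL1, the gene of an AP-1 subunit, stood at 9.12, 9.33 and 9.60 in T4 samples 1 to 3, against 7.21, 7.22 and 7.71 in S1 samples 1 to 3, without overlap, and the difference was 2.05 ± 0.12 (limma adjusted p = 1.02e-07). Each sequence runs 5′ to 3′ on the coding strand from 250 bases before to 50 after the RefSeq start of the gene (GRCh38.p14), and capitals mark the AP-1 letters TGANTCA, which read the same on both strands. The CXCL8 window is chr4:73740319-73740618 on the plus strand, with a match 137 bases before the start. The IL1A window is chr2:112784444-112784743 on the minus strand, with a match 12 bases before the start and another in the transcribed part.
CXCL8: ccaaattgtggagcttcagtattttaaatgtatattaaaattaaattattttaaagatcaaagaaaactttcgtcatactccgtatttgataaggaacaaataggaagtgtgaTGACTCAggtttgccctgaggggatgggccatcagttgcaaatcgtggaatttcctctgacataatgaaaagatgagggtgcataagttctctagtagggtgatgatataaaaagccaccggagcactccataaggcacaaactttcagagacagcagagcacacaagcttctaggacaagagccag
IL1A: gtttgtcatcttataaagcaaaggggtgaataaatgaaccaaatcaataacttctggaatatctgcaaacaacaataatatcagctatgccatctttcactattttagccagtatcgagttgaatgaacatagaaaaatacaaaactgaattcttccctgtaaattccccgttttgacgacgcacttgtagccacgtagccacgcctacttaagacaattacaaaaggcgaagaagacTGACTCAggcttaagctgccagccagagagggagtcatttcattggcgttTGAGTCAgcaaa
Such letters stood in 18 of the 303 promoters found for genes at least 2-fold higher in T4 (5.94%), in 7 of 213 for genes at least 2-fold lower (3.29%), in 358 of 7501 for all genes tested (4.77%) and in 7.76% of all 27305 windows in the RefSeq table. The cyclic AMP response letters TGACGTCA, which hold an extra base and so cannot match at the same letters, stood in 5.28% of the promoters of the higher genes, 1.41% of the lower and 3.44% of all tested. The ETS letters CCGGAAGT, searched on both strands, stood in 3.96% of the higher, 3.76% of the lower and 8.12% of all tested. These shares describe the windows and carry no test.

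Differences ranked by p brought forward genes with little spread among samples. GPM6B, a membrane proteolipid gene, stood at 6.76, 6.82 and 6.64 in T4 samples 1 to 3, against 9.71, 9.86 and 9.90 in S1 samples 1 to 3. All 3 T4 values lay below the lower quartile of their samples and all S1 values were more than 2 log2 units above the sample medians. Its difference of -3.07 ± 0.08 had the smallest adjusted p of all (3.43e-11, limma). PTGS2, which encodes the inducible cyclooxygenase, led the higher side at 10.42, 9.92 and 9.63 in T4 samples 1 to 3, against 6.69, 6.89 and 6.61 in S1 samples 1 to 3 (3.24 ± 0.15, limma adjusted p = 1.61e-08). Other genes with little spread that rose were SPRY4, a Sprouty feedback inhibitor of receptor tyrosine kinase signalling (2.41 ± 0.12), HBEGF, which encodes an EGF-like growth factor (2.89 ± 0.17), GSDME, a gasdermin gene (1.60 ± 0.10), and PLEK2, a pleckstrin family gene (2.99 ± 0.22). On the lower side stood UBXN2B (-2.54 ± 0.13), ADGRG2, an adhesion G protein-coupled receptor gene (-2.29 ± 0.10), PDK4, a kinase that inhibits pyruvate dehydrogenase (-1.90 ± 0.11), and EPHA4, an ephrin receptor gene (-1.99 ± 0.13). These 8 genes passed with limma adjusted p of 1.03e-06 or less, and each had its 3 T4 values on 1 side of its 3 S1 values.

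Some genes lay at the bottom of the scale in 1 line and above the middle in the other. In 6 passing genes (0.0659% of those tested) every S1 value was below the lower quartile of its sample and every T4 value above the sample median, and in 8 (0.0878%) the lines were the other way round. The 6 were PTGS2, EREG, which encodes the EGF receptor ligand epiregulin, SCG5, a secretory granule protein gene, EVI2B, BDKRB1, the bradykinin B1 receptor gene, and CYP26B1, which encodes a retinoic acid hydroxylase. EVI2B and BDKRB1 did not pass in the first table alone (limma adjusted p of 0.0522 and 0.0969). EREG stood at 9.13, 8.80 and 9.91 in T4 samples 1 to 3, against 6.77, 6.87 and 6.52 in S1 samples 1 to 3 (2.52 ± 0.31, limma adjusted p = 7.69e-05). The 8 were CACNA2D3, a calcium channel subunit gene, OMD, GUSBP15, F2R, the thrombin receptor gene, MLPH, which encodes melanophilin, BEX1, GPM6B and MRFAP1L1. F2R stood at 6.76, 6.70 and 6.70 in T4 samples 1 to 3, against 8.61, 9.02 and 8.72 in S1 samples 1 to 3, and MLPH at 6.89, 6.80 and 6.82 in T4 samples 1 to 3, against 9.04, 9.08 and 8.72 in S1 samples 1 to 3. Both had differences near 2 log2 units, -2.02 ± 0.13 and -2.07 ± 0.13, with limma adjusted p of 3.44e-07 and 2.19e-07. BEX1 stood at 6.88, 6.86 and 6.81 in T4 samples 1 to 3, against 9.47, 11.33 and 7.73 in S1 samples 1 to 3, so it varied widely among the S1 samples and little among the T4 samples. With the T4 and S1 samples alone and no table term BEX1 did not pass, without or with the sample number as a block (limma adjusted p of 0.088 and 0.0516). Differences against values this low can be understated on an array.

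**Figure D2:**
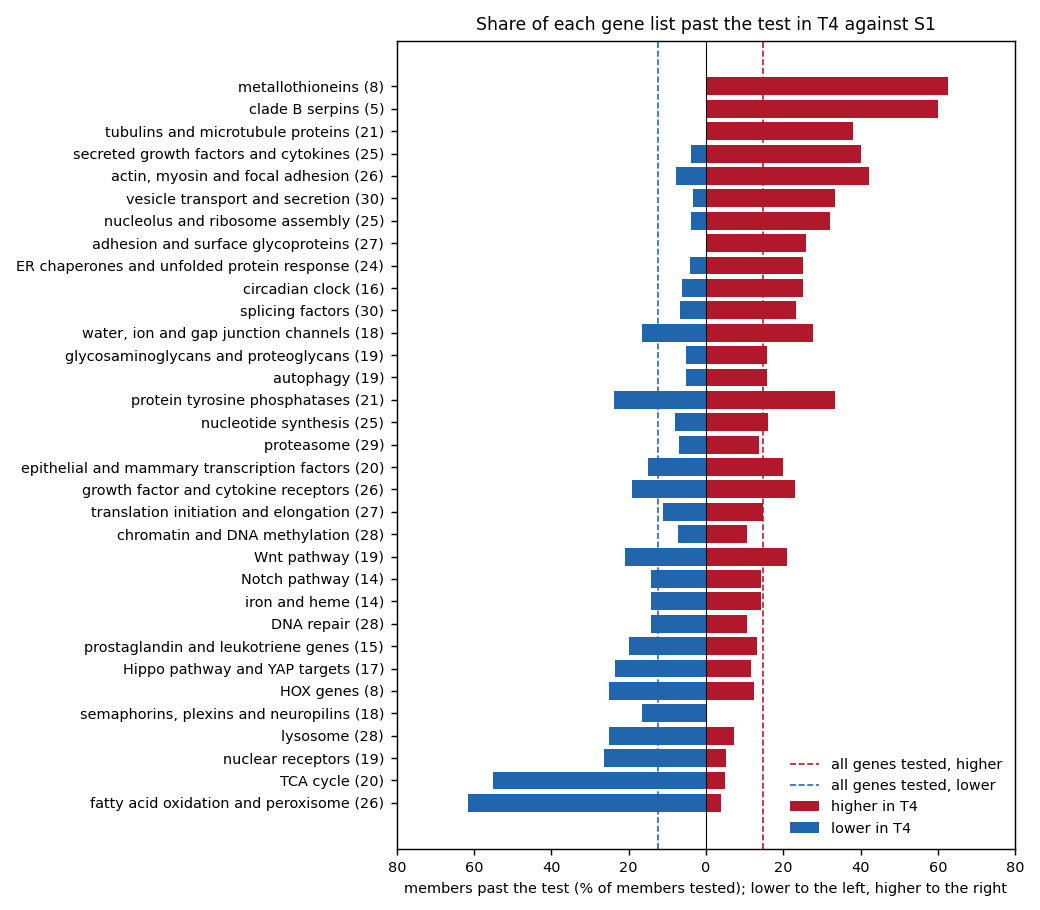
Share of the tested members of 33 gene lists that passed the test, higher in T4 to the right and lower to the left (% of members tested, number tested in brackets), with the shares of all genes tested as dashed lines. Fatty acid oxidation and the TCA cycle reach furthest to the left, and metallothioneins, clade B serpins, actin genes and secreted factors furthest to the right.

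Tubulin genes were higher in T4. Of 21 tested genes of tubulins and microtubule proteins, 8 rose and 0 fell, and the median log2 difference was 0.45, against 0.01 over all genes. At an unadjusted p under 0.05 in limma, 10 were higher and 0 lower. All 8 encode α- or β-tubulin, the subunits of the microtubule itself: TUBB2A, TUBB6, TUBB3, TUBB4B, TUBA1B, TUBA1C, TUBB and TUBA1A. TUBB2A stood at 10.89, 10.61 and 11.18 in T4 samples 1 to 3, against 7.88, 7.49 and 7.59 in S1 samples 1 to 3. TUBB6 stood at 12.56, 12.41 and 13.19 in T4 samples 1 to 3, against 10.08, 9.42 and 11.29 in S1 samples 1 to 3. In both genes the lowest T4 value was above the highest S1 value, by more than 2 log2 units for TUBB2A and by more than 1 for TUBB6. The differences were 3.13 ± 0.35 and 2.49 ± 0.42 (8.73-fold and 5.6-fold), with limma adjusted p of 3.56e-05 and 0.000796. The α-tubulin genes TUBA1B and TUBA1C, among the brightest genes on the arrays, rose by 1.24 ± 0.21 and 1.04 ± 0.17, and their T4 means were 13.47 ± 0.19 and 13.34 ± 0.10 against S1 means of 12.24 ± 0.24 and 12.27 ± 0.21 (SD, n = 3 each). Microtubule-associated genes did not pass: values were 0.32 ± 0.25 for MAP4, 0.50 ± 0.23 for STMN1, which encodes stathmin, 0.13 ± 0.11 for MAPRE1, an end-binding protein gene, and 0.15 ± 0.16 for the kinesin gene KIF5B. The 8 genes also passed in the first table alone, under either replicate block, without sample 3 of either line and with samples 1 and 2 averaged, and 7 passed without S1 sample 2, where TUBB had a limma adjusted p of 0.0632. Tubulin transcripts are similar in sequence, so probe sets of 1 gene can pick up others, and the 8 are not independent.

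Actin filament genes split into a larger group that rose and a few that fell. Of 26 tested genes of actin, myosin and focal adhesions, 11 rose and 2 fell, with a median of 0.35. ACTB, the β-actin gene, stood at 13.46, 13.55 and 14.01 in T4 samples 1 to 3, against 12.29, 12.14 and 13.19 in S1 samples 1 to 3. T4 was above S1 throughout, with S1 sample 3 nearest to T4, and the difference was 1.23 ± 0.23 (limma adjusted p = 0.00159). TPM4, a tropomyosin gene, rose by 1.95 ± 0.25, ACTN1, which encodes the actin crosslinker α-actinin 1, by 1.61 ± 0.29, CFL1, the filament-severing cofilin gene, by 0.98 ± 0.22 and MYH9, the nonmuscle myosin IIA heavy chain gene, by 0.90 ± 0.20. The focal adhesion genes PXN, ZYX, TLN1, VCL and VASP (paxillin, zyxin, talin, vinculin and VASP) rose by 0.36 to 0.70. All of these but ZYX lost their call without S1 sample 2, PXN, TLN1 and VASP also without S1 sample 1 or T4 sample 3, and PXN and TLN1 also without S1 sample 3 (limma adjusted p of 0.0547 to 0.145). MYH10, the myosin IIB heavy chain gene, and CALD1, which encodes caldesmon, an inhibitor of myosin on actin, fell by 1.67 and 1.42 on the log2 scale. MYH10 stood at 7.80, 7.57 and 8.19 in T4 samples 1 to 3, against 9.25, 9.12 and 10.80 in S1 samples 1 to 3, and CALD1 at 9.93, 9.91 and 9.82 in T4 samples 1 to 3, against 11.35, 11.17 and 11.52 in S1 samples 1 to 3. ACTG1, the γ-actin gene, had a value of 0.29 ± 0.18 (limma adjusted p = 0.271), and TPM1 one of -1.30 ± 0.61 (limma adjusted p = 0.133). The 11 became 7 without T4 sample 3, 6 without S1 sample 2 and 5 with the sample number as a block and no table term, while both lower genes passed in all of these.

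Genes of secreted growth factors and cytokines formed another group with more rises than falls. Of 25 tested, 10 rose and 1 fell, and the median was 0.43. VEGFC, the lymphatic vessel growth factor gene, stood at 10.45, 10.08 and 11.21 in T4 samples 1 to 3, against 7.81, 7.81 and 8.43 in S1 samples 1 to 3. INHBA, which encodes the activin A subunit, stood at 9.79, 9.39 and 9.68 in T4 samples 1 to 3, against 8.07, 8.28 and 7.29 in S1 samples 1 to 3. BMP2, a bone morphogenetic protein gene, stood at 8.63, 9.24 and 9.09 in T4 samples 1 to 3, against 7.56, 7.60 and 7.18 in S1 samples 1 to 3. In each of the 3 genes every T4 value exceeded every S1 value by more than 1 log2 unit. The differences were 2.57 ± 0.38, 1.67 ± 0.18 and 1.56 ± 0.20, with limma adjusted p of 0.000324, 2.48e-05 and 0.000117. PDGFC and VEGFA, genes of growth factors for mesenchymal and endothelial cells, rose by 2.53 ± 0.38 and 1.79 ± 0.32, and FSTL1, IL24, TNFSF9, MDK and LIF rose by 0.43 to 1.82. LIF did not pass without S1 sample 1, S1 sample 2, T4 sample 2 or T4 sample 3 (limma adjusted p of 0.0569 to 0.0841). ADM, which encodes the vasodilator peptide adrenomedullin, fell by 1.02 on the log2 scale. It did not pass without S1 sample 2 (limma adjusted p = 0.0528). All 10 passed with samples 1 and 2 averaged, 9 without T4 sample 3 and 7 in the first table alone, where FSTL1, IL24 and LIF did not (limma adjusted p of 0.0524 to 0.151).

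Receptor genes moved both ways, with 6 of 26 higher, 5 lower and a median of 0.01. The higher ones included both chains of the type II interleukin 4 and interleukin 13 receptor. IL13RA1 stood at 8.92, 8.63 and 9.01 in T4 samples 1 to 3, against 7.71, 7.72 and 7.98 in S1 samples 1 to 3, and IL4R at 9.16, 9.36 and 9.55 in T4 samples 1 to 3, against 7.52, 7.48 and 8.05 in S1 samples 1 to 3. Each pair of lines was fully separated, and the differences were 1.05 ± 0.12 and 1.78 ± 0.20 (limma adjusted p of 3.4e-05 and 3.52e-05). MST1R, the RON receptor tyrosine kinase gene, rose by 0.80 ± 0.14, and IFNGR2, OSMR and IL10RB, cytokine receptor chains, by 0.50 to 1.07. OSMR did not pass without S1 sample 1, S1 sample 2 or T4 sample 1, nor IL10RB without T4 sample 1, T4 sample 2 or any S1 sample (limma adjusted p of 0.0564 to 0.151). On the lower side IL1R1, the receptor for IL1A, stood at 7.57, 7.90 and 7.71 in T4 samples 1 to 3, against 10.19, 11.28 and 8.29 in S1 samples 1 to 3. S1 samples differed by almost 3 log2 units among themselves there, with S1 sample 3 nearest to T4, and the difference was -2.50 ± 0.49 (limma adjusted p = 0.00227). AXL, a receptor tyrosine kinase gene, fell by 1.80 on the log2 scale and FGFR2, a fibroblast growth factor receptor gene, by 0.84, and neither passed without T4 sample 3 (limma adjusted p of 0.0529 and 0.0708). Of the 5 lower receptor genes, 1 passed in the first table alone and 2 under the replicate block with no table term, where IL1R1 had a limma adjusted p of 0.05017. Of the 6 higher ones, 5 passed in each of these.

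Of 30 tested genes of vesicle transport, 10 rose and 1 fell (median 0.34), among them genes of the COPII coat, which carries cargo out of the endoplasmic reticulum. SEC23A, an inner subunit of the COPII coat, stood at 10.47, 10.21 and 10.16 in T4 samples 1 to 3, against 8.69, 8.93 and 8.88 in S1 samples 1 to 3. The lines lay more than 1 log2 unit apart, and the difference was 1.45 ± 0.12 (2.73-fold, limma adjusted p = 3.48e-06). SEC24D and SEC24A, the cargo-binding subunits, rose by 0.81 ± 0.12 and 0.82 ± 0.15, and SEC31A, the outer coat subunit, by 0.46 ± 0.14. SEC31A did not pass without S1 sample 2, T4 sample 1 or T4 sample 2 (limma adjusted p of 0.0745 to 0.132). ARF4, an ADP-ribosylation factor GTPase of the Golgi, rose by 1.08 ± 0.16. The paralog SEC23B did not pass, with a value of -0.38 ± 0.16. VAMP8, a fusion protein gene of late endosomes and secretory granules, fell by 0.46 on the log2 scale, and it did not pass when any T4 sample or S1 sample 1 or 2 was left out (limma adjusted p of 0.0815 to 0.238). The 10 became 6 without T4 sample 1, with samples 1 and 2 averaged and under the replicate block with no table term, and 5 in the first table alone.

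Chaperones of the endoplasmic reticulum showed smaller rises. Of 24 tested genes of chaperones and the unfolded protein response, 6 rose and 1 fell (median 0.34), and no difference reached 2-fold. The share that passed, 29.2%, was near the 26.9% of all genes. XBP1, the transcription factor that induces many of them, stood at 9.73, 9.64 and 9.10 in T4 samples 1 to 3, against 8.72, 8.86 and 7.86 in S1 samples 1 to 3 (0.90 ± 0.18, limma adjusted p = 0.00247). CALR, the calcium-binding chaperone calreticulin, rose by 0.72 ± 0.12, and SEC61B, part of the translocation channel, by 0.51 ± 0.11. CANX, the membrane-bound relative of calreticulin, fell by 0.35 on the log2 scale and did not pass without S1 sample 1 (limma adjusted p = 0.0543). With the probe set of largest interquartile range neither CALR, at 0.38, nor CANX, at -0.75, passed (limma adjusted p of 0.184 and 0.0779). ERN1, a sensor of unfolded proteins, had a value of 0.09 ± 0.08. The 6 became 3 in the first table alone, 4 without S1 sample 2 and 2 under the replicate block with no table term.

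Mitochondrial and peroxisomal genes of fat oxidation were lower in T4. Of 26 tested, 16 fell and 1 rose, and the median was -0.55, the lowest of the 33 lists in the plot of list shares. HADHB, the β subunit of the mitochondrial trifunctional protein that carries out the last steps of long-chain β-oxidation, stood at 11.97, 12.01 and 11.30 in T4 samples 1 to 3, against 13.11, 13.24 and 12.73 in S1 samples 1 to 3. CAT, the peroxisomal catalase gene, stood at 10.54, 10.69 and 9.44 in T4 samples 1 to 3, against 11.91, 11.98 and 11.64 in S1 samples 1 to 3. T4 lay below S1 in all samples of both genes, and T4 sample 3 was the lowest. The differences were -1.35 ± 0.18 and -1.71 ± 0.24 (2.55-fold and 3.27-fold lower), with limma adjusted p of 0.000157 and 0.000218. PEX11A, which promotes peroxisome division, fell by 0.82 on the log2 scale, ETFB, the electron transfer flavoprotein subunit, by 1.00, the acyl-CoA dehydrogenase genes ACADVL, ACADM and ACADSB by 0.96, 0.74 and 0.54 and CPT2, the inner carnitine palmitoyltransferase gene, by 0.80. CPT1A, its outer membrane partner, had a value of -0.20 ± 0.16 (limma adjusted p = 0.409). PEX10 was the gene that rose, by 0.36 ± 0.08, but it did not pass with the probe set of largest interquartile range (0.042, limma adjusted p = 0.836) or the mean of all probe sets (0.20, 0.0861). Of the 16, 13 passed without T4 sample 3, 14 without S1 sample 3, 13 in the first table alone and 11 with samples 1 and 2 averaged, and 12, without ACADSB (limma adjusted p = 0.0781), when S1 sample 2 was left out.

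HADHB and HADHA, which encode both subunits of the trifunctional protein, start from opposite strands of 1 short region, and their sequence is shown for that reason. HADHA stood at 10.81, 10.98 and 10.48 in T4 samples 1 to 3, against 11.43, 11.38 and 11.34 in S1 samples 1 to 3. Its difference was -0.74 ± 0.22, the same direction as HADHB, with a limma adjusted p of 0.0241 that became 0.0556 with the probe set of largest interquartile range, 0.0568 without S1 sample 1, 0.0581 without S1 sample 3 and 0.0896 without T4 sample 3. The HADHB window is chr2:26244689-26244988 on the plus strand (RefSeq, GRCh38.p14), 5′ to 3′ from 250 bases before to 50 after its start, and capitals mark the 194 bases that also lie in the same window of HADHA on the minus strand.
HADHB: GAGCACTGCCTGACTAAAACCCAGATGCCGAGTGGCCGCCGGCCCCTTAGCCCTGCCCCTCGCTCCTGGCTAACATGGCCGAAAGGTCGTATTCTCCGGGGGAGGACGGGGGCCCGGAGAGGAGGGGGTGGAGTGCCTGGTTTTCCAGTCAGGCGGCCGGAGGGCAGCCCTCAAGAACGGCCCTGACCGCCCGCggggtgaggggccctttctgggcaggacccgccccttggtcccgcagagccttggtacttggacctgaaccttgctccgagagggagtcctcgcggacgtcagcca

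The TCA cycle, which oxidises acetyl-CoA in mitochondria, followed the same direction. Of 20 tested genes 11 fell and 1 rose, with a median of -0.47. DLD, the dihydrolipoamide dehydrogenase subunit shared by several mitochondrial complexes, stood at 10.34, 10.49 and 10.54 in T4 samples 1 to 3, against 11.30, 11.39 and 11.17 in S1 samples 1 to 3. IDH3A, the catalytic subunit of the NAD-dependent isocitrate dehydrogenase, stood at 8.82, 8.79 and 9.16 in T4 samples 1 to 3, against 10.19, 10.68 and 9.33 in S1 samples 1 to 3. Neither gene's lines overlapped, and S1 sample 3 was close to T4 for IDH3A. The differences were -0.96 ± 0.12 and -1.37 ± 0.20 (limma adjusted p of 8.97e-05 and 0.000264). IDH3B, its partner subunit, fell by 0.88 on the log2 scale. MDH1 and MDH2, malate dehydrogenases of cytosol and mitochondria, fell by 0.79 and 0.74, the succinate dehydrogenase subunits SDHD and SDHA by 0.70 and 0.45 and the succinyl-CoA ligase subunits SUCLG1, SUCLA2 and SUCLG2 by 0.69, 0.66 and 0.51. SDHA did not pass without T4 sample 2 (limma adjusted p = 0.0757), nor SUCLG2 without S1 sample 3 or T4 sample 3 (0.0561 and 0.0845). CS, the citrate synthase gene at the entry to the cycle, had a value of -0.25 ± 0.10 (limma adjusted p = 0.0799). ACLY, which turns exported citrate into acetyl-CoA for lipid synthesis, rose by 1.09 ± 0.37, but it did not pass without S1 sample 1, S1 sample 2, T4 sample 2 or T4 sample 3 (limma adjusted p of 0.0621 to 0.195), or with the probe set of largest interquartile range (0.0569). The 11 stayed at 10 or 11 when any single sample was left out, and became 8 with samples 1 and 2 averaged, 7 in the first table alone and 6 under the replicate block with no table term.

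**Figure D3:**
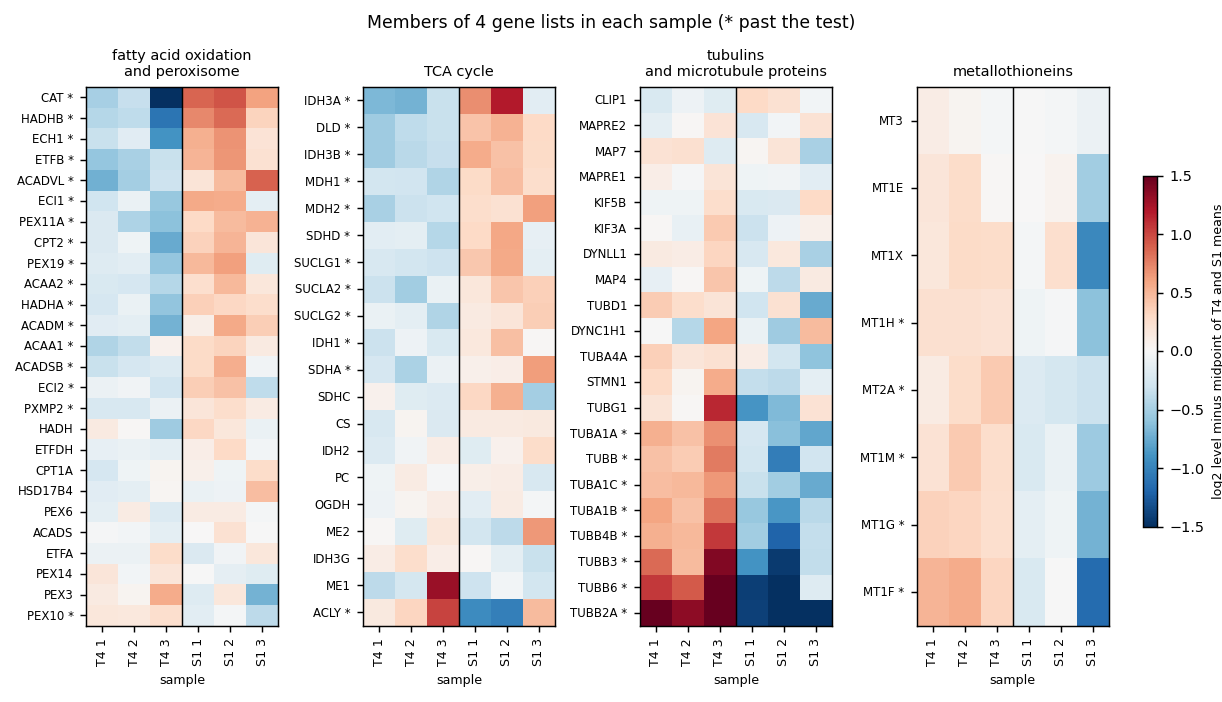
Log2 level of each tested member of 4 gene lists in each T4 and S1 sample, as the difference from the midpoint of the T4 and S1 means (colour scale, red above and blue below), with an asterisk on genes that passed. Most fatty acid oxidation and TCA cycle genes are blue across the T4 columns, the α- and β-tubulin genes are red there, and S1 sample 3 is the lowest sample for several metallothioneins.

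Lysosomal genes were more often lower than higher, with 7 of 28 tested falling, 2 rising and a median of -0.19. CTSD, the cathepsin D protease gene, stood at 7.72, 7.73 and 7.52 in T4 samples 1 to 3, against 8.93, 8.76 and 9.09 in S1 samples 1 to 3, without overlap (-1.14 ± 0.13, limma adjusted p = 3.94e-05). ATP6V1A and ATP6V1B2, subunits of the proton pump that acidifies the lysosome, fell by 0.84 and 0.95 on the log2 scale, and the cathepsin gene CTSB and the hydrolase genes TPP1 and ASAH1 by 0.74, 0.97 and 0.79. NPC1, which exports cholesterol from lysosomes, stood at 10.12, 10.28 and 10.24 in T4 samples 1 to 3, against 8.87, 8.68 and 9.92 in S1 samples 1 to 3. S1 sample 3 was close to the T4 values there, and the difference was 1.20 ± 0.22 (limma adjusted p = 0.00135). LAMP1 and LAMP2, the main membrane proteins, had values of 0.51 ± 0.20 and 0.19 ± 0.17 and did not pass, and other probe sets of both genes gave values below 0. ASAH1 did not pass without T4 sample 3 (limma adjusted p = 0.0752) nor CTSB without S1 sample 1 or 2 (0.0598 and 0.0688), nor TPP1 with the probe set of largest interquartile range (0.0826). Of the 7, 5 passed without S1 sample 1 and with samples 1 and 2 averaged, and 4 in the first table alone.

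Metallothionein genes, which encode small cysteine-rich proteins that bind zinc and copper, showed small rises. Of 8 tested, 5 rose and 0 fell, with a median of 0.46 and no difference of 2-fold. At an unadjusted p under 0.05 in limma, 6 were higher and 0 lower. MT2A stood at 13.56, 13.72 and 13.83 in T4 samples 1 to 3, against 13.23, 13.17 and 13.12 in S1 samples 1 to 3. MT1G stood at 11.14, 11.12 and 11.05 in T4 samples 1 to 3, against 10.64, 10.73 and 10.08 in S1 samples 1 to 3. The lines did not overlap in either gene, and the differences were 0.51 ± 0.07 and 0.53 ± 0.11 (limma adjusted p of 0.000268 and 0.00273). MT1F rose by 0.71 ± 0.15, MT1M by 0.52 ± 0.13 and MT1H by 0.40 ± 0.10, whereas MT1X, MT1E and MT3 had values of 0.36 ± 0.18, 0.24 ± 0.11 and 0.04 ± 0.09. All 5 passed when any single sample was left out and with samples 1 and 2 averaged, and 4 did in the first table alone, where S1 sample 3, the lowest sample for MT1F, MT1G, MT1H and MT1M, is absent. The coding sequences of these genes are similar, so their probe sets may pick up more than 1 transcript. Metallothionein genes lie together on chromosome 16 and carry metal response elements, and the windows of MT2A (chr16:56608334-56608633) and MT1H (chr16:56669564-56669863), both on the plus strand (RefSeq, GRCh38.p14), are printed for that reason, with matches to TGCGCNC in capitals on the strand shown.
MT2A: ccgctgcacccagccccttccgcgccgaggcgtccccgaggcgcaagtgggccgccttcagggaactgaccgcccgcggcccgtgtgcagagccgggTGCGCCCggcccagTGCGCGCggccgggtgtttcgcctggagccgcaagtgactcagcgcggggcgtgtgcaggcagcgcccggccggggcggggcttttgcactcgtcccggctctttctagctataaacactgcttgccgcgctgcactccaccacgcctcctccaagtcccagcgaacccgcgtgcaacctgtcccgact
MT1H: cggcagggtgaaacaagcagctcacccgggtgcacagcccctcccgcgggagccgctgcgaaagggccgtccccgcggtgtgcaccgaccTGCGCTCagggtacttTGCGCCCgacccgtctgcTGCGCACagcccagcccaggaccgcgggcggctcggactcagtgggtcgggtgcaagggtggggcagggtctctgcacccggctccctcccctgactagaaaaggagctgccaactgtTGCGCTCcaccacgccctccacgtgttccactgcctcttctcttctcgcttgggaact
The MT2A window held 2 such matches and the MT1H window 4. Only these exact letters were marked, so other forms of the element may stand unmarked. Searched on both strands, the letters stood in 31.7% of the promoters of genes at least 2-fold higher in T4, 28.2% of those at least 2-fold lower and 30.7% of all tested, so they are frequent by themselves.

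Of 15 tested genes of prostaglandin and leukotriene metabolism, 2 rose and 3 fell, a share of rises near the 14.6% of all genes. Beside PTGS2, PTGES, which makes prostaglandin E2 from the product of PTGS2, rose by 1.15 ± 0.30 and did not pass without T4 sample 3 (limma adjusted p = 0.0526). HPGD, which inactivates prostaglandins, stood at 8.32, 8.28 and 6.93 in T4 samples 1 to 3, against 10.62, 11.58 and 8.92 in S1 samples 1 to 3. ALOX15B, a lipoxygenase gene, stood at 7.01, 7.07 and 6.95 in T4 samples 1 to 3, against 9.96, 10.17 and 8.87 in S1 samples 1 to 3. T4 lay below S1 in both genes, and the S1 samples differed by more than 1 log2 unit among themselves. The differences were -2.93 ± 0.46 and -2.75 ± 0.22 (limma adjusted p of 0.000447 and 2.05e-06). LTA4H, which makes leukotriene B4, fell by 0.79 on the log2 scale and did not pass without S1 sample 1 or T4 sample 3 (limma adjusted p of 0.087 and 0.0597). PTGS1, the constitutive cyclooxygenase gene, had a value of -0.10 ± 0.09 and did not pass.

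Protein tyrosine phosphatases, which remove phosphate from signalling proteins, changed in both directions. Of 21 tested genes 7 rose and 5 fell, and the median absolute difference was 0.71, against 0.24 over all genes. Receptor-type genes were among those that fell: PTPRM, which mediates adhesion between like cells, stood at 8.10, 8.02 and 7.67 in T4 samples 1 to 3, against 9.37, 9.52 and 9.81 in S1 samples 1 to 3, and PTPRF, the LAR phosphatase gene, at 8.15, 8.21 and 7.91 in T4 samples 1 to 3, against 9.20, 9.28 and 10.34 in S1 samples 1 to 3. PTPRZ1 fell by 1.93 on the log2 scale, PTPRM by 1.57 and PTPRF by 1.28, and the nonreceptor genes PTPN13 and PTPN6 by 0.85 and 0.71. Those that rose were of the nonreceptor or PRL kind: PTPN2, which dephosphorylates JAK and STAT proteins, rose by 0.79 ± 0.12, PTPN3 by 0.88 ± 0.13, PTP4A2 by 0.86 ± 0.15 and PTPN1, PTPN12, PTPN21 and PTPN22 by 0.35 to 0.91. All 5 lower genes passed when any single sample was left out, in the first table and under both replicate blocks. PTPN12 was at 0.21 with the probe set of largest interquartile range and at 0.35 with the mean of all probe sets, and passed with neither (limma adjusted p of 0.702 and 0.127), nor without T4 sample 3 (0.0609). Of the 7 higher genes, 5 passed in the first table alone and with samples 1 and 2 averaged.

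Other signalling and transcription lists held changes in both directions. Of 19 tested Wnt genes 4 rose and 4 fell: the receptor genes FZD6, FZD2 and ROR1 fell by 1.28, 0.64 and 1.53 on the log2 scale, and TCF7L1, a transcription factor at the end of the pathway, and AXIN1, a scaffold of β-catenin breakdown, rose by 0.67 ± 0.11 and 0.45 ± 0.09. In the Notch list of 14, NUMB, an inhibitor of Notch, rose by 0.76 ± 0.13 and NOTCH3 fell by 0.46, and NOTCH2 (0.37 ± 0.12) and NOTCH1 (-0.81 ± 0.28) passed too. The share of the Notch list that passed, 28.6%, was near the 26.9% of all genes. NOTCH1 did not pass when any sample was left out (limma adjusted p of 0.059 to 0.125), nor NOTCH2 without S1 sample 1, S1 sample 2, T4 sample 1 or T4 sample 3 (0.0839 to 0.121). In the list of 17 Hippo genes and YAP targets, 2 rose and 4 fell (35.3% in all, against 26.9% of all genes). NT5E, an ectonucleotidase gene, and FJX1 rose by 2.26 ± 0.37 and 1.59 ± 0.31. PTPN14, an inhibitor of YAP, and STK3, an upstream kinase, fell by 0.75 and 0.45, and AXL and WWTR1 fell too. STK3 did not pass with the mean of all probe sets (-0.22, limma adjusted p = 0.0676). Among 19 nuclear receptors 1 rose and 5 fell. NR3C1, the glucocorticoid receptor gene, stood at 10.46, 10.21 and 9.78 in T4 samples 1 to 3, against 11.02, 10.90 and 11.33 in S1 samples 1 to 3 (-0.89 ± 0.16, limma adjusted p = 0.00105), and NR1H3 and THRA fell by 0.73 and 0.60.

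STAT5B, a mediator of prolactin and growth hormone signals, was close to the array's floor in T4, at 6.97, 6.95 and 6.94 in T4 samples 1 to 3, against 7.98, 8.14 and 8.27 in S1 samples 1 to 3 (-1.17 ± 0.09, limma adjusted p = 1.31e-06). It belongs to the 20 tested epithelial and mammary transcription factors, of which 4 rose and 3 fell (35% in all, against 26.9% of all genes). ID1 and ID2, inhibitors of basic helix-loop-helix factors, moved in opposite directions, by 1.30 ± 0.34 and -1.56 ± 0.43, but ID1 did not pass without S1 sample 2 (limma adjusted p = 0.0602) nor ID2 without S1 sample 1 or 2 (0.0754 and 0.0966). Among 16 clock genes BHLHE40, a repressor of CLOCK targets, stood at 11.46, 10.89 and 10.95 in T4 samples 1 to 3, against 8.43, 8.39 and 7.72 in S1 samples 1 to 3. CRY1, a core repressor of the clock, stood at 8.35, 8.39 and 8.56 in T4 samples 1 to 3, against 7.17, 7.28 and 7.03 in S1 samples 1 to 3. Neither overlapped between lines, and they rose by 3.01 ± 0.30 and 1.21 ± 0.10 (limma adjusted p of 1.54e-05 and 2.3e-06). Of 8 tested HOX genes, HOXA2 fell by 1.27 on the log2 scale, and HOXC6 and HOXC4 had values of -0.64 ± 0.21 and 0.37 ± 0.12. HOXC6 did not pass without S1 sample 1, S1 sample 2, T4 sample 2 or T4 sample 3 (limma adjusted p of 0.0645 to 0.19), nor HOXC4 without S1 sample 1, S1 sample 3, T4 sample 1 or T4 sample 3 (0.0601 to 0.0931). In the chromatin list of 28, 3 rose and 2 fell, and the share that passed, 17.9%, was below the 26.9% of all genes. HMGA2, an architectural factor of embryonic and tumour cells, rose by 1.97 ± 0.29, HDAC9 by 1.46 ± 0.32 and SMARCA4, the BRG1 remodeller gene, by 1.26 ± 0.23. Each of these 3 passed when any single sample was left out. HDAC1 and SMARCA2 fell, and neither passed in the first table alone.

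Among nucleolar and ribosome assembly genes 8 of 25 rose, 1 fell and the median was 0.34. At an unadjusted p under 0.05 in limma, 14 were higher and 1 lower. ODC1, the first enzyme of polyamine synthesis, was listed with them and stood at 11.19, 11.71 and 13.19 in T4 samples 1 to 3, against 9.30, 9.18 and 9.77 in S1 samples 1 to 3, highest in T4 sample 3 (2.58 ± 0.43, limma adjusted p = 0.000678). NIP7 and PPAN, ribosome assembly factors, rose by 0.86 ± 0.16 and 0.68 ± 0.12. The 8 became 4 without S1 sample 2, 3 in the first table alone and 4 under the replicate block with no table term. Of 30 splicing factors 7 rose and 2 fell (30% in all, near the 26.9% of all genes). SRSF7 rose by 1.26 ± 0.27, and ESRP1, which directs epithelial splicing, stood at 7.44, 7.27 and 6.82 in T4 samples 1 to 3, against 8.59, 8.67 and 7.64 in S1 samples 1 to 3 and fell (-1.17 ± 0.25, limma adjusted p = 0.00392). With its probe set of largest interquartile range SRSF7 was at 0.48 and did not pass (limma adjusted p = 0.312). The 7 splicing factors became 2 without S1 sample 2, 3 without S1 sample 1 and 4 without T4 sample 3. Among 27 translation factors EIF4G1, the scaffold of the cap-binding complex, rose by 1.23 ± 0.26, and EEF1D, an elongation factor subunit, fell by 1.43 on the log2 scale. EIF4G1 stood at 9.02, 9.20 and 10.29 in T4 samples 1 to 3, against 8.32, 8.01 and 9.31 in S1 samples 1 to 3, so its lines overlapped. It did not pass in the first table alone or without the table term (limma adjusted p of 0.072 and 0.0819). In all, 4 translation factors rose and 3 fell, near the shares of all genes. In DNA repair, NBN, a sensor of double-strand breaks, stood at 7.81, 7.78 and 8.22 in T4 samples 1 to 3, against 9.42, 9.96 and 10.02 in S1 samples 1 to 3 and fell by 1.81, within a list of 28 that had 3 higher and 4 lower. The share of that list that passed, 25%, was near the 26.9% of all genes. Proteasome genes had 4 of 29 higher and 2 lower, near the shares of all genes, and 0 of those 4 passed without T4 sample 3 or without S1 sample 1 or 2. In nucleotide synthesis 4 of 25 rose and 2 fell, with a median of 0.32. The share that passed, 24%, was near the 26.9% of all genes. GMPS, which makes GMP, rose by 0.89 ± 0.12.

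At the cell surface, 7 of 27 adhesion and surface glycoprotein genes rose and 0 fell (7 and 3 at an unadjusted p under 0.05 in limma), but the median of 0.06 was close to that of all genes, and 3 to 6 of the 7 passed when single samples were left out. TSPAN13, a tetraspanin gene, stood at 11.94, 11.70 and 11.37 in T4 samples 1 to 3, against 10.30, 10.36 and 10.39 in S1 samples 1 to 3 (1.35 ± 0.21, limma adjusted p = 0.000426), and CD47, the signal that inhibits phagocytosis, rose by 1.00 ± 0.23. EXT1 and EXT2, which polymerise heparan sulfate, rose by 1.55 ± 0.17 and 0.79 ± 0.18, and HSPG2, which encodes the basement membrane proteoglycan perlecan, by 1.06 ± 0.23. With its probe set of largest interquartile range EXT1 was at 0.56 and did not pass (limma adjusted p = 0.452). HS2ST1, a heparan sulfate sulfotransferase gene, fell by 0.79 on the log2 scale. ATP1B1, a subunit of the sodium pump, stood at 8.58, 8.02 and 8.34 in T4 samples 1 to 3, against 11.28, 11.61 and 9.66 in S1 samples 1 to 3. It fell by 2.86 (7.26-fold, limma adjusted p = 3.72e-06), the largest change among 18 tested channel and pump genes, of which 5 rose and 3 fell. PLXNB1, the receptor for semaphorin 4D, and SEMA5A fell by 1.51 and 1.06 within 18 semaphorin, plexin and neuropilin genes, of which 0 rose and 3 fell in limma (2 and 4 at an unadjusted p under 0.05). The share of that list that passed, 16.7%, was below the 26.9% of all genes. SERPINB8, an intracellular protease inhibitor gene, rose by 1.43 ± 0.19, and 3 of the 5 tested clade B serpins rose. Of these 3, 2 passed in the first table alone, without T4 sample 3 and with samples 1 and 2 averaged, and 1 under the replicate block with no table term. TFRC, the transferrin receptor gene, rose by 1.29 ± 0.23 within 14 iron and heme genes, of which 2 rose and 2 fell (28.6%, near the 26.9% of all genes). GABARAP, which acts in autophagosome formation, had a value of -1.17 ± 0.28 and did not pass without S1 sample 2 (limma adjusted p = 0.0531). It was the 1 gene that fell among 19 autophagy genes, of which 21.1% passed. The 3 that rose were ATG5, OPTN and WIPI1, and 1 of these 3 passed in the first table alone.

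The brightest genes of those that changed at least 2-fold were ranked by their mean level over the 6 samples. Beside ACTB, TUBA1B, TUBA1C and TUBB6, the brightest that rose included SLPI, a secreted leukocyte protease inhibitor gene (1.43 ± 0.31), SAT1, which degrades polyamines (1.46 ± 0.27), ANXA1, which encodes annexin A1 (1.31 ± 0.32), ID1 and TIMP1, a metalloproteinase inhibitor gene (1.16 ± 0.31). ANXA1 and TIMP1 did not pass without S1 sample 2 (limma adjusted p of 0.0534 and 0.0719). The brightest that fell included GLUL, the glutamine synthetase gene, at 12.12, 12.05 and 9.95 in T4 samples 1 to 3, against 13.30, 13.24 and 13.24 in S1 samples 1 to 3. T4 sample 3 was about 2 log2 units below the other T4 samples, and the difference was -1.92 ± 0.41 (limma adjusted p = 0.00356). MAOA, monoamine oxidase A, fell by 1.75 on the log2 scale, UQCRC1, a core subunit of respiratory complex III, by 1.11, APEX1, the abasic site endonuclease gene, by 1.18, HTRA1, a secreted protease gene, by 1.29 and BTG1, an antiproliferative gene, by 1.52. In the first table alone GLUL and BTG1 did not pass (limma adjusted p of 0.115 and 0.123). SDCBP, which encodes syntenin, and EIF3K fell by 1.10 and 1.18.

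T4 sample 3 went beyond T4 samples 1 and 2 by at least 2-fold in 49 of the 1333 higher genes and in 59 of the 1119 lower ones, and fell short of them by as much in 26 and 0. The genes with the widest spread among T4 samples showed both patterns. TFPI2, a Kunitz-type protease inhibitor gene, stood at 8.59, 7.92 and 11.38 in T4 samples 1 to 3, against 6.78, 6.88 and 8.29 in S1 samples 1 to 3. TREM1, a myeloid receptor gene, stood at 9.79, 8.86 and 7.28 in T4 samples 1 to 3, against 7.36, 7.25 and 7.11 in S1 samples 1 to 3. T4 sample 3 was the highest for TFPI2, whereas for TREM1 it lay within the S1 range. NAV3 followed TFPI2, with 9.93 in T4 sample 3 beside 7.68 and 7.20, and HSF2BP and TMEM45A followed TREM1, with 7.44 and 8.03 in T4 sample 3. TFPI2 did not pass without S1 sample 1 or 2 (limma adjusted p of 0.104 and 0.0976), TREM1 without S1 sample 1, S1 sample 2, T4 sample 1 or T4 sample 2 (0.0568 to 0.0725) and NAV3 without any S1 sample (0.0634 to 0.108). HSF2BP did not pass without S1 sample 1 or T4 sample 2 (0.0593 and 0.05045), nor TMEM45A without any sample except T4 sample 3 (0.06 to 0.129). On the lower side TMT1A, GPNMB, SPOCK1, FAM13A and ETS2 were lowest in T4 sample 3. SPOCK1 did not pass without S1 sample 2 (limma adjusted p = 0.0563), nor ETS2 without S1 sample 1, S1 sample 2 or T4 sample 3 (0.106 to 0.149). FAM13A stood at 10.44, 10.48 and 8.13 in T4 samples 1 to 3, against 11.92, 12.02 and 11.48 in S1 samples 1 to 3 (-2.03 ± 0.50, limma adjusted p = 0.00878). Without T4 sample 3 the 1333 and 1119 became 1163 and 920.

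Calls were not spread evenly over the chromosomes. Chromosome 13 had 48 of 154 tested genes lower (31.2%) and chromosome 8 had 91 of 308 (29.5%), followed by chromosome 5 (23.7%) and chromosome 20 (23.2%), against 12.3% over all genes. Higher genes were most frequent on chromosome 14 (26.9%), chromosome 6 (22.2%), chromosome 21 (21.2%), chromosome 16 (20.7%) and chromosome 12 (20.2%), against 14.6%. On chromosome 21, 22 of 104 genes were higher and 1 lower, and the exception was ETS2. Chromosome medians were shifted in the same direction in each T4 sample, to -0.12, -0.16 and -0.10 on chromosome 13 and to -0.11, -0.13 and -0.12 on chromosome 8, relative to the mean of S1 samples 1 and 2. S1 sample 3, after removal of the table term, lay at 0.09 and 0.05 on these chromosomes. That term was fitted partly from S1 sample 3, so its removal draws this sample toward S1 samples 1 and 2. On chromosome 21 the T4 samples lay at 0.18, 0.18 and 0.20 and S1 sample 3 at 0.03. S1 sample 3 was not near 0 on every chromosome. On chromosome 18 it lay at 0.26, beside 0.29, 0.17 and 0.20 in T4 samples 1 to 3. On chromosome 10 it lay at -0.095, beside -0.09, -0.07 and -0.11 in T4 samples 1 to 3.

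**Figure D4:**
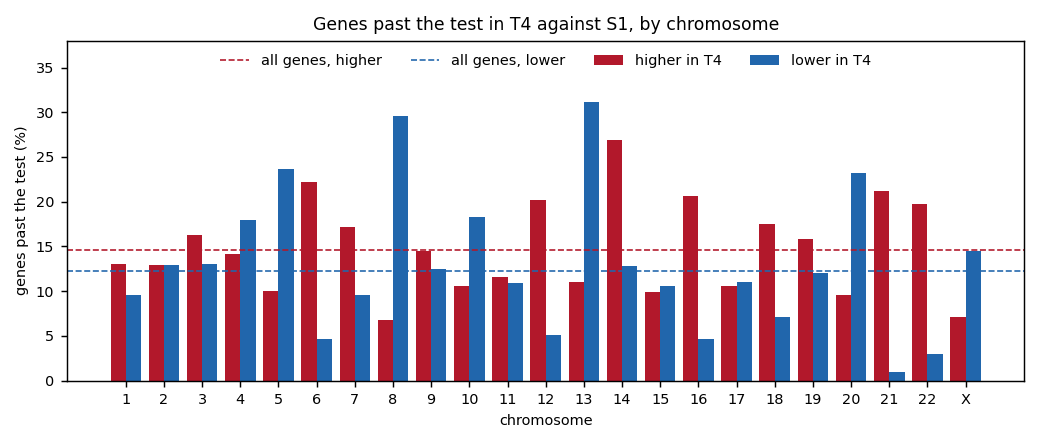
Share of tested genes on each chromosome that were higher (red) or lower (blue) in T4 (% of genes tested), with the shares over all genes as dashed lines at 14.6% and 12.3%. Chromosomes 8 and 13 rise above 29% lower, and chromosome 14 has the tallest bar of higher genes, at 26.9%.

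Calls in 1 direction lay side by side in parts of chromosomes. The tested genes were divided in chromosomal order into 354 blocks of about 25, a division chosen after seeing the chromosome shares, and the median block had 11.1% lower and 12% higher. Blocks with at least 40% lower numbered 9, and those with at least 40% higher 10. The last block of chromosome 8, from PLEC to C8orf33, had 18 of 25 genes lower. Its median difference was -0.54, -0.50 and -0.49 in T4 samples 1 to 3, against 0.07 in S1 sample 3 after removal of the table term. That term was fitted partly from the same S1 sample. The first block of chromosome 13, from TUBA3C to POLR1D, had 13 of 26 lower. Chromosome 14 held both directions: its first block, CCNB1IP1 to PRMT5, had 13 of 26 lower and 1 higher, whereas the blocks PYGL to TIMM9 and GLRX5 to CDC42BPB each had 12 of 26 higher. On chromosome 3 the block RSRC1 to FNDC3B had 13 of 25 higher and 2 lower, on chromosome 19 the block PLEKHF1 to USF2 had 14 of 25 higher, and on chromosome 6 the block OR2H2 to PSORS1C1 had 14 of 27 higher. DNA copy number was not measured here, and its part in these shares was not tested.

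**Figure D5:**
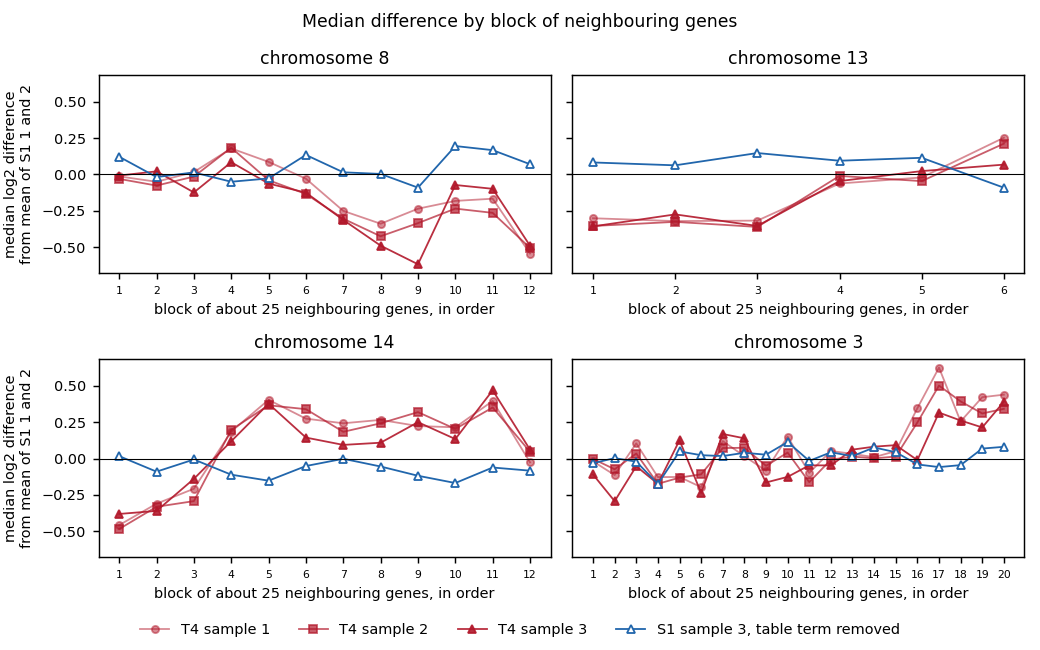
Median log2 difference from the mean of S1 samples 1 and 2 (vertical axis) over blocks of about 25 neighbouring tested genes in chromosomal order (horizontal axis) on chromosomes 8, 13, 14 and 3, for each T4 sample (red) and for S1 sample 3 with the table term removed (open blue). The 3 T4 samples fall to between -0.54 and -0.49 in the last block of chromosome 8 and run close together along chromosome 14, where S1 sample 3 stays between -0.17 and 0.02.

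The longest runs of neighbouring tested genes that passed in 1 direction had 7 genes each. On chromosome 8 the run PLEC, GRINA, OPLAH, EXOSC4, GPAA1, CYC1 and SHARPIN was lower in T4. CYC1, which encodes cytochrome c1 of respiratory complex III, stood at 9.34, 9.31 and 9.60 in T4 samples 1 to 3, against 11.45, 11.42 and 11.09 in S1 samples 1 to 3. GRINA, a glutamate receptor-associated gene, stood at 8.20, 8.04 and 7.94 in T4 samples 1 to 3, against 10.64, 10.40 and 9.69 in S1 samples 1 to 3. The lines were separated by more than 1 log2 unit in both, and the differences were -1.99 ± 0.14 and -2.15 ± 0.30 (limma adjusted p of 5.18e-07 and 0.000209). PLEC, the plectin gene at the start of the run, did not pass when T4 sample 1 or 2 or any S1 sample was left out (limma adjusted p of 0.0583 to 0.139). On chromosome 19 the run TNFSF9, CD70, C3, TRIP10, SH2D3A, VAV1 and ADGRE1 was higher, with a median of 0.88. C3, the central complement component, stood at 10.42, 10.86 and 10.07 in T4 samples 1 to 3, against 9.04, 9.65 and 9.33 in S1 samples 1 to 3 (1.27 ± 0.27, limma adjusted p = 0.00373), and ADGRE1, an adhesion G protein-coupled receptor gene, rose by 2.05 ± 0.34. CD70, a TNF family ligand gene next to TNFSF9, had a value of 1.17 ± 0.36 and did not pass without S1 sample 1, S1 sample 2 or T4 sample 1 (limma adjusted p of 0.0808 to 0.117). Runs of 5 included MICU2 and MIPEP, mitochondrial genes on chromosome 13 that fell by 1.02 each, and ALG3, EIF4G1 and POLR2H on chromosome 3, which rose by 1.00 to 1.23. EIF4G1 and MICU2 did not pass in the first table alone (limma adjusted p of 0.072 and 0.0523). Several members of the gene groups above lie in these stretches, EIF4G1 among them, and the part of position in those group counts was not tested.

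Over 14780 probe sets tested, 3447 passed (23.3%). Of 3318 genes with at least 2 probe sets tested, 1 had probe sets that passed in opposite directions, namely BBIP1, a gene of the ciliary BBSome complex. The probe set 213224_s_at stood at 8.31, 8.32 and 7.75 in T4 samples 1 to 3, against 8.85, 9.10 and 8.71 in S1 samples 1 to 3 (-0.80 ± 0.20, limma adjusted p = 0.0122). The probe set 213220_at stood at 8.84, 8.41 and 8.78 in T4, against 7.93, 8.03 and 7.97 in S1 (0.68 ± 0.23, limma adjusted p = 0.0454). At an unadjusted p under 0.05, 12 genes had opposing probe sets. Some named genes passed with the brightest probe set but not with the one of largest interquartile range: EXT1, SRSF7, CALR, PEX10, PTPN12, CANX, TPP1, ACLY and HADHA. With the mean of all probe sets PEX10, PTPN12, STK3 and ETS2 did not pass. That mean also gave smaller differences for genes that still passed, such as 1.08 for CXCL8, 1.70 for IL1A, 1.65 for HBEGF, 1.20 for SPRY4, -0.56 for EEF1D and -0.23 for FGFR2. In these bulk samples, fewer cells of a type and less RNA per cell cannot be told apart for any of the genes above.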

How the data were processed

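The deposited values are log2 expression per Affymetrix probe set, in 2 tables for 2 array types, used as the authors deposited them. Per the labels, Trizol RNA was biotin-labelled for Affymetrix arrays. The sources used here give neither software nor normalization. The number of arrays limits the precision. Of 22215 probe sets in each table, 19707 had 1 gene, 614 several, 1706 none and 188 different names in the 2 annotations. The probe set with the highest mean stood for each of 12149 genes, and the lowest 25% by mean were left out, which left 9111. The fit used limma 3.58.1 in R 4.3.3 on all 15 samples, with group and table as terms, empirical Bayes moderation and Benjamini-Hochberg adjustment over all genes at 0.05. It was tested on simulated data. Differences are T4 minus S1.

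Genes were named by rule: in each direction, the 12 largest differences, the 10 smallest p, the 10 brightest changed at least 2-fold, up to 3 members per list, genes low in 1 line and above the median in the other, the 5 most variable in T4, opposing probe sets and runs of neighbours. Further list members and the other genes given with values were chosen after their values were seen. The comparison and lists were chosen with earlier results of these data known. Deviations from the group means correlated at 0.28, 0.31 and 0.39 between same-numbered T4 and S1 samples, so the numbers were treated as pairing them in the replicate block. Samples 1 and 2 could not be told apart by it: T4 sample 1 with S1 sample 2 gave 0.29, and T4 sample 2 with S1 sample 1 gave 0.31. Deviations within a group cancel, so these values are not independent. Alternatives changed the probe set, filter, normalization, table term, replicate block, weights and samples used. Results for 1 further gene list are not reported here.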

Additional observations from a re-analysis of the deposited data

How the results depend on the processing

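The number of genes that passed, 2452 in the fit reported, was 1687 to 2691 when single samples were left out, with 928 to 1426 higher in T4 and 759 to 1265 lower. With the 6 T4 and S1 samples alone and no table term it was 1229 (707 higher, 522 lower), and with samples 1 and 2 of each line averaged, added after seeing the data, 1440 (801 and 639). With array weights it was 4180 (2246 and 1934). The replicate block gave 1784 (1040 and 744) without the table term and 2728 (1498 and 1230) with it. After quantile normalization of each table, 1314 genes were lower and 1232 higher, and the other settings of probe set, filter and table gave totals of 1906 to 2808. Probe sets of opposing call were found for 1 gene in the fit reported, 0 in the first table alone and 0 without a filter (limma, with 12, 9 and 21 at an unadjusted p under 0.05). With the probe set of largest interquartile range, LAMP1 was at -0.029 and LAMP2 at -0.38, and with the mean of all probe sets LAMP2 was at -0.19, against 0.51 and 0.19 in the fit reported. Of 313 named or listed genes followed, 82 no longer passed in the first table alone and 73 under the replicate block without the table term, and of 311 with a value, 15 with the probe set of largest interquartile range. The cause of these changes was not tested. Values near the lower quartile carry little signal over background, and the array type of S1 sample 3 is carried by the table term. That term is not fully separable from differences between the reverting agents.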
